A study of Homo sapiens with 54 samples.

Results

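The 10 transcription factors described here, TBXT, MIXL1, EOMES, GSC, SOX17, SOX7, FOXA2, GATA4, GATA6 and HHEX, were chosen by name as regulators of mesendoderm and endoderm. They are 10 of the 19720 genes that could be named through the RefSeq accession of a probe, and 12 probes read them. GATA4 has 3 probes and every other factor has 1. For GATA4 the probe with the highest mean normalized signal over the 54 arrays was used, and its other probes are given where they differ.

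The study set FGFC, a chimera of FGF1 and FGF2, beside basic FGF (bFGF) in cultures of human pluripotent stem cells. RNA from 27 cultures was measured on 54 one-colour Agilent arrays with 42405 probes. Each culture lay on 2 arrays, which were averaged and counted as 1 culture. The values are normalized signals on the log2 scale, from which the 75th percentile of the probes of the array was subtracted, so that 0 stands for a probe at that percentile. A probe is called well above background on an array where the scanner software marked at least a share of 0.5 of its spots so. Between 54.0% and 75.6% of all probes were well above background on both arrays of a culture. The number of arrays limits the precision, and most of the factors lay near background, where precision is lowest. Probes differ in brightness, so a higher signal of 1 probe than of another does not show more RNA. Where marker lists are given with a summed signal and their brightest probe, these describe the signal only.

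The 4-day series used H1, an embryonic stem cell (ESC) line, in E8 Medium, a defined medium without feeder cells that holds 2 ng/mL TGFβ1. Its 3 pre-cultures had 100 ng/mL bFGF and were at passages 48, 49 and 50. In each of 3 experiments, 1 culture was then kept for 4 days with 100 ng/mL bFGF, 1 with 100 ng/mL FGFC and 1 with no FGF. The labels put these cultures at passages 49, 59 and 51, so that in experiment 2 the link from the pre-culture of passage 49 to arms of passage 59 is uncertain. All arms of experiment 1 lay on 1 slide, as did those of experiment 3, but the bFGF culture of experiment 2 was apart from the other arms.

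Long-term culture covered 5 systems, each with a pre-culture, a culture with bFGF and a culture with FGFC at the same dose. H1 in E8 Medium was kept for 30 days with 100 ng/mL, and its pre-culture is that of experiment 1. H1 in medium conditioned by mouse embryonic fibroblasts (MEF) was kept for 41 days with 5 ng/mL. KhES-1, another ESC line, was kept on MEF feeder cells for 30 days with 5 ng/mL. The induced pluripotent stem cell (iPSC) line 201B7 was kept on MEF feeder cells for 50 days with 10 ng/mL, and the iPSC line 253G1 in E8 Medium for 36 days with 100 ng/mL. Pre-culture and arms were at passages 48 and 58 for H1 in E8 Medium and 53 and 63 for H1 in MEF-conditioned medium. For KhES-1 and for 201B7 they were at passages 30 and 40, and for 253G1 at 43 and 52. Between a pre-culture and its arms, days and passages cannot be told apart. A last culture, differentiated H1, was grown as embryoid bodies for 8 days in suspension and 11 days attached, with no FGF. Every system and arm is 1 culture and every line stands for 1 clone, so that line, medium, dose, time and passage cannot be told apart between systems, and differences within a system have no replicate check. Since the samples are bulk RNA, fewer cells expressing a factor and less RNA per cell cannot be told apart.

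The labels were checked against 10 markers of pluripotent cells (POU5F1, NANOG, SOX2, LIN28A, TDGF1, DPPA4, DNMT3B, ZFP42, SALL4 and PRDM14). All 10 were well above background on both arrays of each of the 26 cultures other than differentiated H1, with medians from 4.18 to 5.50. In differentiated H1, 9 of the 10 were, PRDM14 was not, and the median was 1.13.

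In the embryo, cells that leave the pluripotent state through the primitive streak pass a stage called mesendoderm, from which mesoderm and definitive endoderm arise. NODAL and WNT signals start this step and switch on a set of transcription factors that drive one another and then split into mesoderm and endoderm programs. FGF signalling in human pluripotent cells is known to hold back neural fates and to help set which lineages the cells can enter.

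TBXT (brachyury) is the T-box factor of the primitive streak and nascent mesoderm, and EOMES is the T-box factor needed for definitive endoderm. MIXL1 and GSC are homeobox factors of the streak, GSC being the mark of its anterior end. SOX17 is a driver of definitive endoderm and SOX7 a close relative that also serves in primitive and visceral endoderm. FOXA2 opens chromatin at endoderm genes, GATA4 and GATA6 act in definitive and extraembryonic endoderm and in the heart, and HHEX marks anterior endoderm.

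In the 26 cultures other than differentiated H1 the factors were mostly dim. TBXT was well above background on both arrays of 2 of the 27 cultures, SOX7 of 2, EOMES of 4, SOX17 of 6, GATA6 of 6 and MIXL1 of 8. HHEX passed in 10 cultures, GATA4 in 11, GSC in 13 and FOXA2 in 16. The counts per culture differed between and within systems. In H1 in E8 Medium, 0 to 3 of the 10 factors passed in each pre-culture and arm, 30 days included, and in 253G1 FOXA2 was the 1 factor that did, in all 3 cultures. In H1 in MEF-conditioned medium 5 factors passed in the pre-culture, 6 with bFGF and 6 with FGFC. In KhES-1 the numbers were 8, 6 and 6, in 201B7 they were 1, 8 and 7 in the same order, and in differentiated H1 7 factors passed. Of all probes, 55.5% to 74.7% passed in H1 in E8 Medium, 54.0% to 56.2% in 253G1 and 73.2% to 75.6% in H1 in MEF-conditioned medium. The shares were 64.8% to 67.4% in KhES-1, 62.6% to 68.5% in 201B7 and 64.6% in differentiated H1. The signal needed to pass thus differed between cultures, and the counts alone do not show a difference in RNA.

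**Figure D1:**
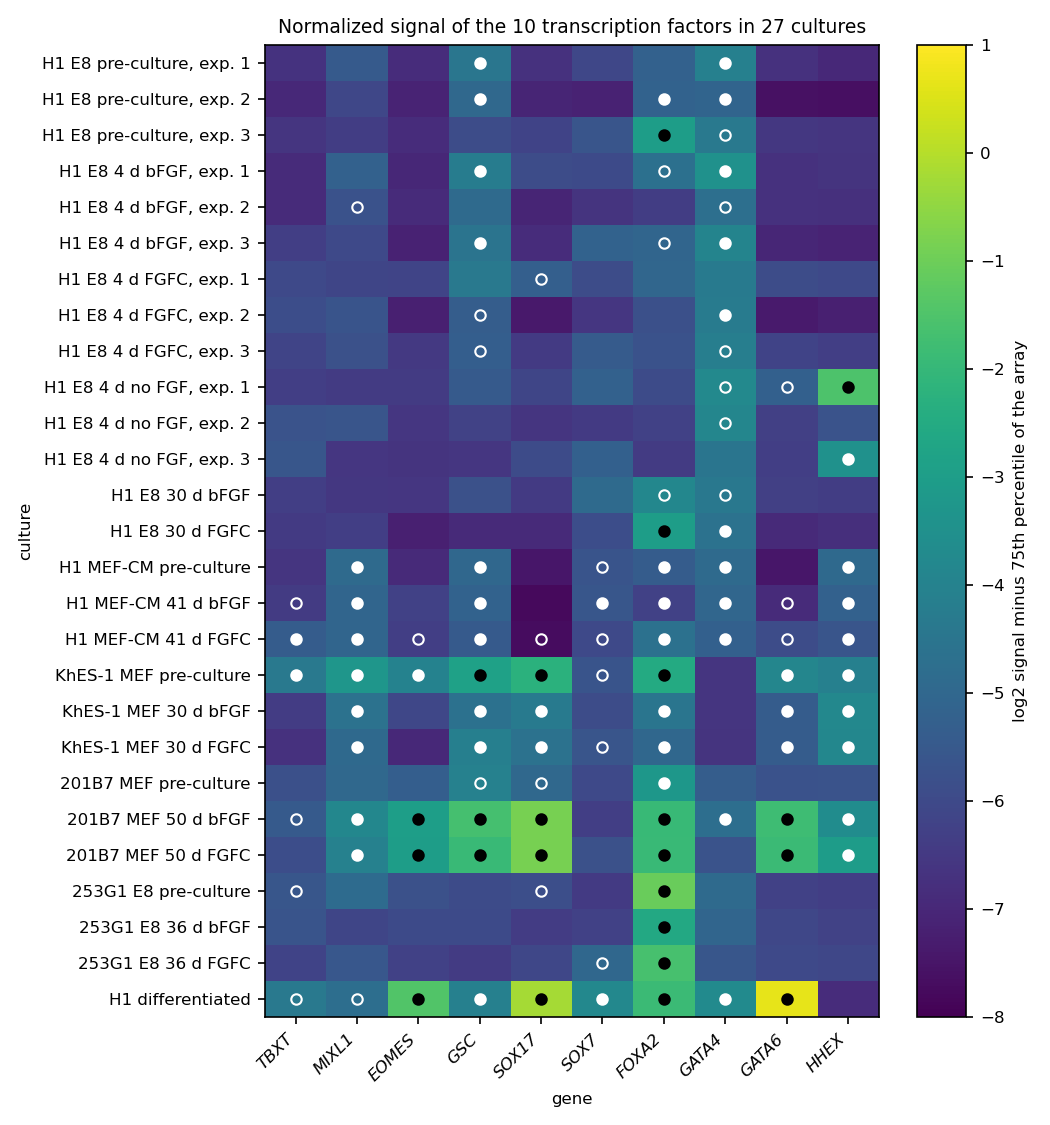
Normalized log2 signal of the 10 factors (horizontal axis) in the 27 cultures (vertical axis); filled dots mark factors well above background on both arrays and open dots on 1 array. Signal stands out in the KhES-1 pre-culture, in the 201B7 cultures kept for 50 days and in differentiated H1.

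Each factor had its own range over the 27 cultures. TBXT ran from -6.95 to -4.37 with a median of -6.18, and MIXL1 from -6.57 to -3.26 with a median of -5.56, and both were highest in the KhES-1 pre-culture. EOMES ran from -7.20 to -1.44 (median -6.51), SOX17 from -7.77 to -0.21 (median -6.20), SOX7 from -7.15 to -3.81 (median -5.86) and GATA6 from -7.60 to 0.68 (median -6.27). These 4 were highest in differentiated H1. GSC ran from -6.92 to -1.65 (median -5.00) and was highest in 201B7 with bFGF, FOXA2 from -6.43 to -1.05 (median -4.69) and was highest in the 253G1 pre-culture. GATA4 ran from -6.64 to -3.44 (median -4.71) and HHEX from -7.63 to -1.53 (median -6.10). GATA4 peaked with bFGF and HHEX with no FGF, each in experiment 1 of the 4-day series. The 10 peaks thus lay in 6 different cultures.

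The factors are shown first by their promoters, since EOMES, GSC, GATA6 and MIXL1 changed in like direction in the feeder systems described further on. SOX17 and FOXA2 changed with them there, and the rise of MIXL1 with FGFC in 201B7 was below 2-fold. Promoters, here the 250 bases before a start in RefSeq on GRCh38.p14, were searched for 6 of the factors, 7 promoters in all. Both strands were searched for letters bound by factors of this step: ATCCACA for FOXH1, GTCTG for SMAD proteins, CTTTGAT for TCF and LEF, TCACACC for T-box factors and AGATAA for GATA factors. Capitals mark the matches. Printed 5′ to 3′ on the strand of the gene, MIXL1 is chr1:226223414-226223663 (plus strand), EOMES chr3:27722324-27722573 (minus strand), GSC chr14:94770114-94770363 (minus strand) and GATA6 chr18:22169339-22169588 (plus strand).
MIXL1: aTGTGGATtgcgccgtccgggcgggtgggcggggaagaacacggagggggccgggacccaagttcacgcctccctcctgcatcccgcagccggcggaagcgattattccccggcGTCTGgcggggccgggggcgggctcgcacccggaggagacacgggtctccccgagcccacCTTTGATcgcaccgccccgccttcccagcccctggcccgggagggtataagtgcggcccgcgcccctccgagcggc
EOMES: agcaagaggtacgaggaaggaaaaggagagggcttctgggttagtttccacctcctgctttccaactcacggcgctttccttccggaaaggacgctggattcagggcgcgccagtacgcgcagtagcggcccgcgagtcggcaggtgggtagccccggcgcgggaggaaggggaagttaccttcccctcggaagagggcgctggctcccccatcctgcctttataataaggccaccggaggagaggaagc
GSC: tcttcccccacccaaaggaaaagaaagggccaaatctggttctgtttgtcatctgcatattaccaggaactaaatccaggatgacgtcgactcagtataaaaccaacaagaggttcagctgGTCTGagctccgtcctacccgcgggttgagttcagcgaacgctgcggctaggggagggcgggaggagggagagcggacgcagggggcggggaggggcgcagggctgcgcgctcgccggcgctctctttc
GATA6: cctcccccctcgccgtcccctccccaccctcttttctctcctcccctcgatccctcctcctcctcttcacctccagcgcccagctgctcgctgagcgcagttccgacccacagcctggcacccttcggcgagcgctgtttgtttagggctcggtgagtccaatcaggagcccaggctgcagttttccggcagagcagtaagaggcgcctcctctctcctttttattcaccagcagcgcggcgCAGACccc
The MIXL1 promoter held the FOXH1 letters on the minus strand from base -249, SMAD letters on the plus strand from -136 and the TCF and LEF letters from -76. The GSC promoter held SMAD letters on the plus strand from -129, the GATA6 promoter on the minus strand from -8, and 1 TBXT promoter on both strands from -148 and -131. None of the 7 promoters held the T-box or GATA letters, and those of EOMES and HHEX and the other TBXT promoter held no match at all. Of 35116 promoters of the same length, 2.27% held the FOXH1 letters, 2.26% those of TCF and LEF, 38.0% those of SMAD, 2.76% those of the T-box and 9.17% those of GATA. A match is a run of letters and not a shown binding site.

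The first question of the 4-day series is what the factors do when FGF is taken away. Between no FGF and bFGF, 3 of the 10 factors had an adjusted p under 0.05 in limma, against 12.7% of all probes. TBXT and HHEX were higher and GSC was lower without FGF. The median difference of the 10 factors was 0.34 on the log2 scale (0.21 under quantile normalization and 0.12 under normexp), beside 0.01 over all probes (0.02 and 0.06). By the 2-fold rule on means 2 factors changed, HHEX and GSC, against 11.1% of all probes. With the further rule that all 6 arrays of the higher group read the probe well above background, 0 factors did, against 7.87% of all probes, since neither HHEX nor GSC met this in all 3 cultures. Between no FGF and FGFC, a comparison that shares the no FGF cultures, 1 factor passed (HHEX), against 10.8% of all probes, and the medians were 0.15 and -0.02.

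HHEX moved most. With no FGF its signals in experiments 1, 2 and 3 were -1.53, -5.71 and -3.44. With bFGF they were -6.64, -6.77 and -7.12, with FGFC -6.01, -7.23 and -6.33, and in the pre-cultures -6.95, -7.63 and -6.61. The no FGF values lay above all others in the series, but HHEX was well above background without FGF only in experiments 1 and 3, and the no FGF cultures were far apart among themselves (-3.56 ± 2.09, SD, n = 3). Against bFGF the limma difference was 3.28 (SE 0.79, 95% interval 1.53 to 5.03, adjusted p = 0.0193), higher in 3 of 3 experiments by 5.11, 1.06 and 3.68, and within the shared slides of experiments 1 and 3 as well. As a bound, HHEX was at least 4.69-fold higher without FGF. For such a bound the dimmer group is set, on each array, to the larger of 2 values, the probe's signal and the smallest signal that still passed as well above background. Every bound in the text is for the processed signal, and other processing can give less. For HHEX the log2 difference was 1.17 under normexp background correction, the smallest over the alternatives.

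The call for HHEX leaned on single experiments. In limma the adjusted p was 0.116 without experiment 1 and 0.293 without experiment 3, where the differences were in the same direction, and 0.00703 without experiment 2. Over 11 alternatives it ran from 0.00703 to 0.293, with the call kept in 7. Against FGFC the limma difference was 2.96 (adjusted p = 0.0358), higher in 3 of 3 experiments by 4.47, 1.52 and 2.88, at least 4.05-fold (log2 difference 1.09 under normexp), and the adjusted p was 0.125 without experiment 1 and 0.354 without experiment 3 (0.0149 to 0.354 over 11 alternatives, with the call kept in 6).

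GSC moved the other way. With bFGF its signals in experiments 1, 2 and 3 were -4.21, -4.90 and -4.54, and with FGFC -4.35, -5.34 and -5.32. Without FGF they were -5.45, -6.22 and -6.59. The pre-cultures had -4.46, -4.98 and -5.89. Every no FGF value lay below every bFGF and FGFC value, and GSC was well above background on 4 of 6 arrays with bFGF, 2 of 6 with FGFC and 0 of 6 without FGF. Of all probes, 69.0%, 65.3% and 69.4% passed on both arrays with bFGF in experiments 1, 2 and 3. The shares were 55.5%, 74.7% and 56.6% with FGFC and 58.4%, 59.8% and 59.9% without FGF. Against bFGF the limma difference was -1.54 (SE 0.42, 95% interval -2.45 to -0.63, adjusted p = 0.0325), lower in 3 of 3 experiments, and as a bound GSC was at least 1.53-fold lower, while over the alternatives the log2 difference ran from -1.72 to -0.22, the smallest under normexp. Without experiment 2 or 3 the adjusted p in limma was 0.173 or 0.249, with the same direction, and over 11 alternatives it ran from 0.00307 to 0.413, with the call kept in 6. Against FGFC the limma difference was -1.09 (lower in 3 of 3 experiments, adjusted p = 0.137, at least 1.12-fold, and -0.21 under normexp). This passed the test in 2 of 11 alternatives, the experiment number as a block (0.0194) and the slide as a block (0.0328), over a range of 0.0194 to 0.684.

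TBXT passed the test below background. It was well above background on 0 of the 24 arrays of the series, with means of -6.75 ± 0.18 in the pre-cultures, -6.70 ± 0.32 with bFGF, -6.01 ± 0.13 with FGFC and -5.87 ± 0.40 without FGF (SD, n = 3 each). The limma difference between no FGF and bFGF was 0.83 (SE 0.23, adjusted p = 0.0371), higher in 3 of 3 experiments by 0.55, 1.20 and 0.74. It passed in 2 of 11 alternatives (adjusted p from 0.0115 to 0.614) and in none of the fits that left out an experiment (0.0692, 0.271 and 0.199 without experiment 1, 2 and 3), and no fold is given for a signal that was below background in both groups.

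The other 7 factors did not pass limma's test in either comparison. Between no FGF and bFGF their differences ran from -0.84 for FOXA2 to 0.86 for GATA6. FOXA2 fell in experiments 1 and 3 (-1.24 and -1.35) and not in experiment 2 (0.08), from -4.69, -6.35 and -5.08 with bFGF to -5.93, -6.27 and -6.43. Its 3 pre-cultures were at -5.20, -5.17 and -2.98, a spread (SD 1.27) larger than any difference between the means of the arms. GATA6, at -5.25, -6.31 and -6.32 with no FGF and -6.72, -6.72 and -7.04 with bFGF, was higher in 3 of 3 experiments with an adjusted p of 0.226 in limma, and well above background on 1 of these 12 arrays. With slide as a block FOXA2 passed against bFGF (-1.24, adjusted p = 0.0201, range over 11 alternatives 0.0201 to 0.891). On the second array alone MIXL1 passed (-1.51, adjusted p = 0.0366, range 0.0366 to 0.785), but on the first array alone (0.38), under normexp (0.09) and with the floor (0.18) its difference had the other sign. The 2 further GATA4 probes differed by -0.63 and -0.26 between no FGF and bFGF, the probe used by -0.02, and none of the 3 passed.

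**Figure D2:**
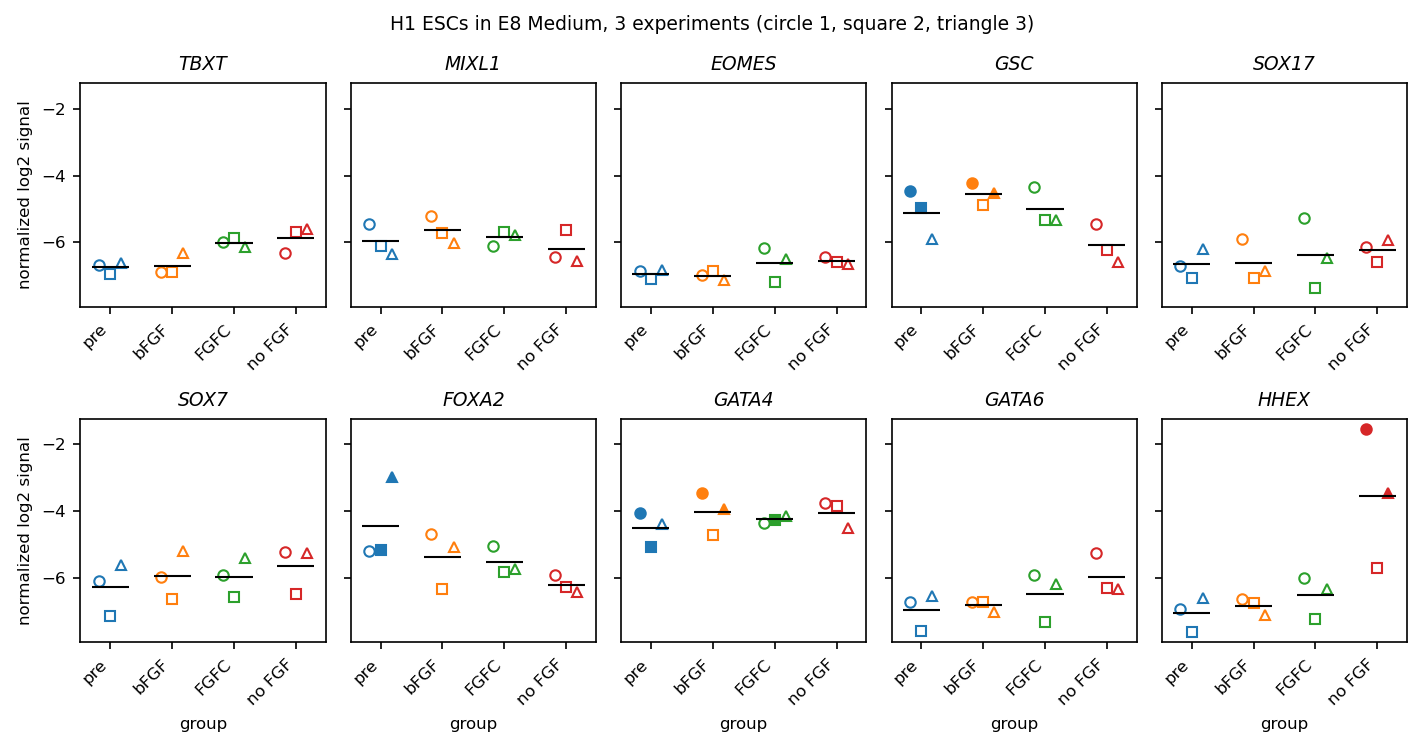
Normalized log2 signal of the 10 factors (1 panel each) in the 4-day series of H1 in E8 Medium, by group, with circle, square and triangle for experiments 1, 2 and 3, filled where the factor was well above background on both arrays, and a line at the mean. HHEX without FGF spreads from -5.71 to -1.53, and GSC without FGF lies below its values with bFGF and FGFC.

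FGFC and bFGF were compared next, since the study asked whether one can take the place of the other. After 4 days 0 of the 10 factors passed limma's test between FGFC and bFGF, against 0.00% of all probes. In limma an unadjusted p under 0.05, which chance alone gives to a share of about 0.05, was found for 1262 of 42405 probes and 1 of 10 factors (TBXT). Its difference of 0.70 was in the same direction in 3 of 3 experiments and below background on every array. The median difference was 0.10 over the factors (-0.11 under quantile normalization, -0.10 relative to all probes) and 0.00 over all probes. Between bFGF and the pre-cultures, which shared the medium, 0 factors passed limma's test, against 0.00% of all probes. Besides the 4 days, these groups differed in passage, and in experiments 2 and 3 in slide. Here 847 probes and 0 factors had an unadjusted p under 0.05, and the medians were 0.18 for the factors (-0.04 under quantile normalization and under normexp, -0.04 and -0.03 relative to all probes) and 0.06 for all probes.

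The signals upstream of these factors were read from lists of genes. For all lists, the share to set beside the counts against bFGF is the 12.7% of all probes past limma's test. Between no FGF and bFGF, 6 of 18 genes of the NODAL pathway passed limma's test and all 6 were lower, although the median over the list was 0.14. The 6 are the ligands NODAL, GDF3 and INHBE, the co-receptor TDGF1, the receptor ACVR1C and the antagonist LEFTY1. Of 14 genes of the WNT input to the streak, 5 were higher (the ligand WNT3, the targets SP5, LEF1 and DKK1, and the amplifier RSPO3) and the target AXIN2 was lower, with a median of 0.64. NODAL itself went from -0.45, -0.88 and -1.42 with bFGF in experiments 1, 2 and 3 to -2.59, -2.54 and -4.19 with no FGF. Its limma difference was -2.19 (adjusted p = 0.0115, lower in 3 of 3 experiments), which did not pass without experiment 1 (0.0579) or 2 (0.0917), in a range of 0.000712 to 0.0917 over 12 alternatives. INHBE differed by -2.59 in limma (lower in 3 of 3 experiments, adjusted p = 0.00669, and 0.0779 and 0.0885 without experiments 1 and 3, range 0.00191 to 0.0885). LEFTY1, at -1.93 in limma (lower in 3 of 3 experiments, adjusted p = 0.0469), did not pass without experiment 1, 2 or 3 (0.177, 0.131 and 0.137), in a range of 0.00459 to 0.177. Of the WNT targets, LEF1 rose by 4.39 (adjusted p = 6.09e-06 in limma) and SP5 was at least 47.3-fold higher (adjusted p = 0.000309 in limma), both in 3 of 3 experiments and past the test in every alternative run for them. Over these the log2 difference ran from 3.18 to 4.71 for LEF1 and from 3.34 to 7.33 for SP5.

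Some genes of each downstream list passed the test, against 12.7% of all probes. Of 20 further genes of streak and mesoderm, 3 were higher without FGF (FGF8, PDGFRA and BMP4) and 2 lower (MESP2 and KDR), with a median of -0.11. Of 20 further genes of definitive endoderm, 7 were higher (CXCR4, PRDM1, OTX2, SHISA2, SOX2, EPHB3 and FRZB) and ONECUT1 was lower, with a median of 0.62. Of 20 genes of extraembryonic endoderm, 5 were higher (PDGFRA, LAMB1, BMP2, PTH1R and RSPO3) and SPARC was lower, with a median of 0.19. The call of PTH1R, at least 5.84-fold higher in 3 of 3 experiments (adjusted p = 0.0155 in limma), was lost without experiment 1, 2 or 3 (0.0924, 0.0582 and 0.105, range 0.00359 to 0.105). FGF8, at least 12.6-fold higher in 3 of 3 experiments (adjusted p = 0.000657 in limma), did not pass without experiment 3 (0.0536, range 0.000122 to 0.0536). The WNT antagonist FRZB rose by 6.93 in limma (adjusted p = 1.48e-07, 3 of 3 experiments) and PRDM1 was at least 16.9-fold higher (adjusted p = 4.15e-05, 3 of 3 experiments). The smallest log2 differences over the alternatives were 1.95 for PRDM1, 1.79 for FGF8, 1.23 for PTH1R and 6.32 for FRZB. The endoderm genes FOXA1, HNF4A, LGR5, PDX1, PROX1 and CER1, in contrast, were not well above background on either array of any no FGF culture.

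Several of these genes also serve in other tissues, and markers of other cell types moved with them. Of 12 neuroectoderm markers 8 were higher without FGF against bFGF in limma and 0 were lower, PAX6, LHX2 and RAX among the higher ones, with a median difference of 4.18. Without FGF 8, 9 and 9 of the 12 were well above background on both arrays in experiments 1, 2 and 3, against 6, 6 and 6 with bFGF, and SOX1 and NEUROG2 were not on any array. The signal summed over the list was 4.58, 6.29 and 6.08 without FGF, the brightest probe being that of HESX1 (3.47) in experiment 1 and of LHX2 in experiments 2 and 3 (4.94 and 4.59). With bFGF the sum was 3.41, 3.58 and 3.60, with that of SOX3 the brightest. HHEX was highest in experiment 1, where the neuroectoderm median was lowest (-1.51, against 0.72 and 0.51), and lowest in experiment 2, where that median was highest.

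Of 13 markers of amnion and trophoblast, 6 were higher without FGF (GATA3, TFAP2A, TFAP2C, ISL1, VTCN1 and IGFBP3) and GABRP was lower, with a median of 0.84. Their summed signal was 3.45, 2.90 and 2.97 without FGF and 2.97, 3.14 and 2.84 with bFGF, the KRT7 probe being the brightest in each. CGA was not well above background in any of these 6 cultures. Of 10 pluripotency markers 2 were higher and 3 lower (median -0.11), of 12 cardiac markers 0 were higher and TNNT2 was lower (median 0.21), and of 12 endothelial markers 2 were higher and 2 lower (median 0.30). Without FGF the summed signal of amnion and trophoblast was, like HHEX, highest in experiment 1 and lowest in experiment 2, but the median of that list was not. Against bFGF, GATA3, IGFBP3 and BMP4 rose most in experiment 1 (6.37, 2.67 and 4.35) and least in experiment 2, as HHEX did. VTCN1 and FGF8 rose most in experiment 2 (3.09 and 5.32), and GABRP fell most in experiment 1 (-4.09). The part of these other cell types in the changes of HHEX, GSC and TBXT was not tested.

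Against FGFC, with the same no FGF cultures, the lists gave like counts, where 10.8% of all probes passed limma's test. In limma 1 gene of the NODAL pathway was higher and 4 lower, 5 of the WNT input were higher and 1 lower, 3 of streak and mesoderm higher and 2 lower, 7 of definitive endoderm higher and 1 lower, 5 of extraembryonic endoderm higher and 1 lower, and 8 neuroectoderm markers higher and 0 lower. Amnion and trophoblast had 5 higher and 1 lower, pluripotency 3 and 3, cardiac muscle 0 and 1 and endothelium 2 and 2. LINC00261, a noncoding neighbour of FOXA2, passed in neither comparison. NODAL differed by -1.37 there and did not pass (adjusted p = 0.102, limma). Between FGFC and bFGF 0 genes of any list passed limma's test, with the 1262 probes given above at an unadjusted p under 0.05.

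Over the 5 long-term systems, with the system as a block, 0 of the 10 factors passed limma's test between FGFC and bFGF, against 0.00% of all probes. In limma an unadjusted p under 0.05, which chance alone gives to a share of about 0.05, was found for 2537 of 42405 probes and 2 of 10 factors. EOMES was lower with FGFC in 5 of 5 systems (limma difference -0.37, SE 0.15, adjusted p = 0.701), by -0.64 and -0.07 in H1 in E8 Medium and in MEF-conditioned medium, and by -0.85, -0.04 and -0.27 in the KhES-1, 201B7 and 253G1 systems. Only in 201B7 was it above background in both arms, and there the difference was smallest. The direction depended on the processing, with EOMES at 0.01, 0.04, -0.95, 0.17 and -0.33 in the same systems under quantile normalization and at 0.02, -0.04, -0.06, -0.06 and 0.17 under normexp. GATA4 was also lower in 5 of 5 systems (limma difference -0.38, SE 0.15, adjusted p = 0.701, -0.95 to -0.02), and above background in both arms in 1 of them. Under normexp it was at 0.10 in KhES-1 and 0.04 in 253G1 (0.04 and 0.03 relative to all probes). Its other probes differed in direction, 1 being higher with FGFC in H1 in E8 Medium (0.76), KhES-1 (0.09) and 253G1 (0.14) and the other in 253G1 (1.05), all near background. FOXA2 was higher with FGFC in 4 of 5 systems (limma difference 0.60, SE 0.30, adjusted p = 0.701), by 0.86, 1.64, 0.02 and 0.95 in H1 in E8 Medium, H1 in MEF-conditioned medium, 201B7 and 253G1, and lower by -0.48 in KhES-1, and the 0.02 of 201B7 was -0.01 under normexp (0.13 relative to all probes). The median difference was -0.05 for the factors and -0.04 for all probes.

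Within single systems few factors differed 2-fold between FGFC and bFGF with the higher culture well above background on both arrays. In H1 in MEF-conditioned medium 2 did, against 1.95% of all probes. The FGFC culture of this system lay on another slide than its pre-culture and bFGF culture. TBXT was at -6.59 in the pre-culture, -6.44 with bFGF and -5.38 with FGFC, at least 2.09-fold higher than with bFGF. FOXA2 was at -5.37, -6.27 and -4.64, a difference of 1.64 between the arms that comes from a fall with bFGF (-0.91) and a rise with FGFC (0.73) from the pre-culture. Under normexp the differences between the arms shrank to 0.12 for TBXT and 0.29 for FOXA2, neither of them 2-fold. In H1 in E8 Medium, KhES-1, 201B7 and 253G1, 0 factors did, against 1.71%, 0.557%, 2.78% and 1.39% of all probes, and these single cultures allow no test.

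**Figure D3:**
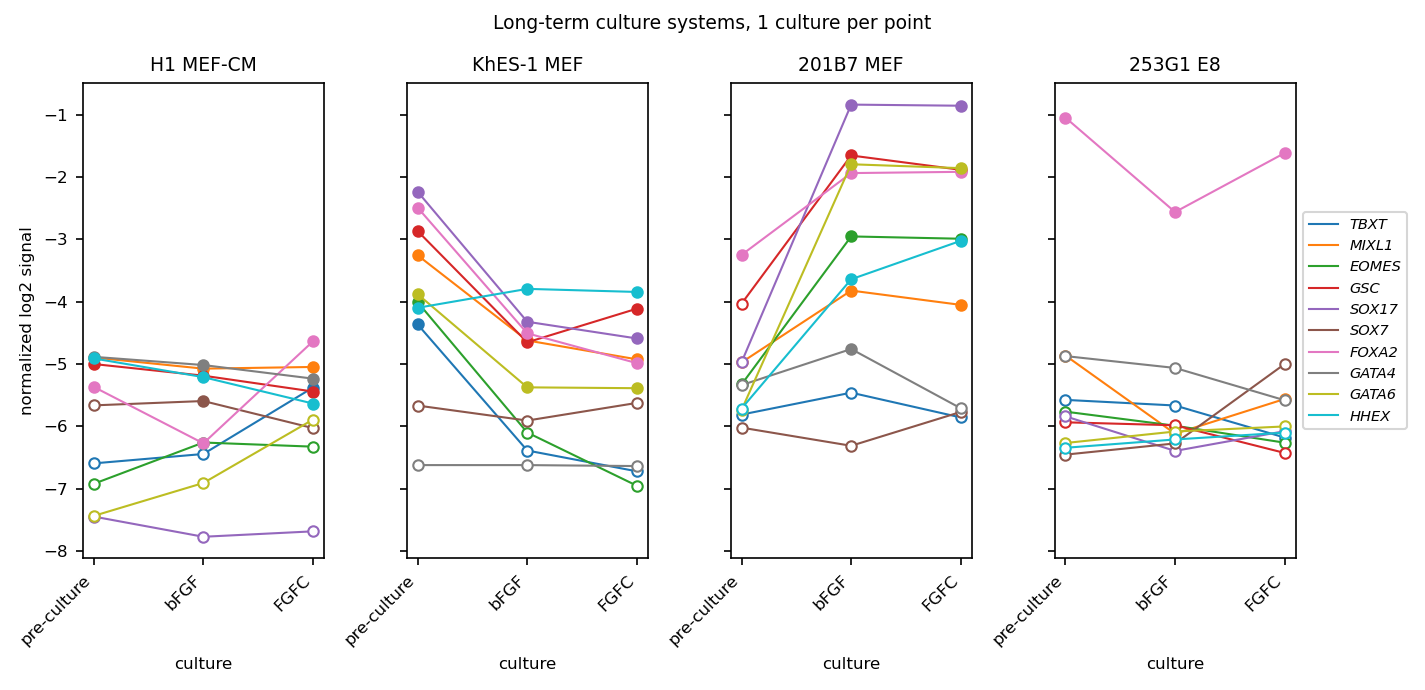
Normalized log2 signal of the 10 factors in the pre-culture, the bFGF culture and the FGFC culture of H1 in MEF-conditioned medium, KhES-1, 201B7 and 253G1. TBXT, MIXL1, EOMES, GSC, SOX17, FOXA2 and GATA6 lie lower in both arms of KhES-1 than in its pre-culture, and MIXL1, EOMES, GSC, SOX17, FOXA2, GATA6 and HHEX higher in both arms of 201B7, where under normexp, with all probes at -0.66 and -0.86, MIXL1, EOMES and HHEX turn to -0.45, -0.01 and -0.51 with bFGF and -0.63, -0.07 and -0.28 with FGFC (0.21, 0.66 and 0.15, and 0.23, 0.79 and 0.57, relative to all probes).

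The larger differences lay between pre-cultures and both arms, which in KhES-1 and 201B7 were at passages 30 and 40. In KhES-1, 7 of 10 factors were lower by 2-fold or more with bFGF than in the pre-culture, against 1.59% of all probes, and 7 with FGFC, against 1.24%. Both comparisons share the pre-culture. The factors had a median difference of -1.64 with bFGF and -1.59 with FGFC, beside -0.02 and -0.05 over all probes, of which 327 were higher and 348 lower with bFGF and 305 and 222 with FGFC.

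Of the streak factors, TBXT fell from -4.37 in the KhES-1 pre-culture to signals below background, -6.39 with bFGF and -6.72 with FGFC, at least 4.06-fold and 5.12-fold. EOMES went from -4.01 to -6.10 and -6.95, also below background, at least 4.26-fold and 4.98-fold lower. MIXL1 went from -3.26 to -4.62 and -4.93, and GSC from -2.87 to -4.65 and -4.11. All 4 were higher in the pre-culture than in either arm, and MIXL1 and GSC remained above background throughout.

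Of the endoderm factors, SOX17 went from -2.24 in the KhES-1 pre-culture to -4.32 with bFGF and -4.59 with FGFC. FOXA2 went from -2.49 to -4.51 and -4.99, and GATA6 from -3.88 to -5.37 and -5.39. HHEX did not follow, at -4.10 in the pre-culture, -3.79 with bFGF and -3.84 with FGFC. SOX7 (-5.67, -5.91 and -5.62) and GATA4 (-6.62, -6.62 and -6.64) were not well above background on both arrays of any KhES-1 culture. The pre-culture and the bFGF culture lay on the same slide, and 66.5%, 64.8% and 67.4% of all probes were well above background in the 3 cultures.

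The fall in KhES-1 kept its direction for the 7 factors under quantile normalization and normexp background correction, but normexp made it smaller, with a median over the factors of -0.49 with bFGF and -0.54 with FGFC. Under it 1 factor (SOX17) stayed past 2-fold with bFGF and 2 (SOX17 and FOXA2) with FGFC, in place of 7 and 7. With bFGF the log2 differences under normexp ran from -1.06 for SOX17 to -0.46 for GATA6, with TBXT at -0.51 and EOMES at -0.48. Further lists showed no like fall. Counted the same way with bFGF and FGFC, 0 and 1 of 18 NODAL pathway genes were lower (medians -0.14 and -0.15), 1 and 1 of 14 WNT input genes (-0.01 and -0.14), 1 and 1 of 20 further streak and mesoderm genes (-0.09 and 0.10), 0 and 0 of 20 further definitive endoderm genes (0.22 and 0.03) and 0 and 0 of 20 extraembryonic endoderm genes (0.10 and -0.05). The genes counted as lower were GDF3, SP5 and FGF8, named after their values were seen. SP5 went from -0.51 to -1.59 and -2.74 and FGF8 from -2.50 to -4.06 and -4.44. Pluripotency markers had medians of -0.10 and -0.12, with 0 of 10 changed.

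In 201B7 the arms moved the opposite way. With bFGF 7 of 10 factors were higher by 2-fold or more than in the pre-culture, against 6.16% of all probes, and with FGFC 6, against 16.1%. Both comparisons share the pre-culture, which lay on another slide than the arms. The median over the factors was 1.69 with bFGF and 1.74 with FGFC, beside -0.15 and -0.33 over all probes, of which 809 were higher and 1805 lower with bFGF and 1865 and 4949 with FGFC. In the pre-culture 62.6% of all probes were well above background, in the arms 68.5% and 65.0%. The 75th percentile of signal, to which the values are scaled, was 182 and 234 on the arrays of the pre-culture, the lowest of the 54 arrays, against 504 or more on every other array. The part of slide and signal quality in these differences was not tested.

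SOX17 went from -4.97 in the pre-culture of 201B7 to -0.84 with bFGF and -0.85 with FGFC, at least 16.1-fold and 15.9-fold higher. GATA6 went from -5.74 to -1.79 and -1.86, at least 10.2-fold higher with FGFC. FOXA2, above background in all 3 cultures, went from -3.25 to -1.94 and -1.92, and HHEX from -5.71 to -3.64 and -3.02, at least 3.47-fold and 5.32-fold higher. These 4 endoderm factors were at like levels in the 2 arms, with the widest gap for HHEX (0.62).

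Of the streak factors, GSC in 201B7 went from -4.03 to -1.65 with bFGF and -1.88 with FGFC, at least 5.20-fold and 4.43-fold higher. EOMES went from -5.33 to -2.95 and -2.99, at least 4.52-fold and 4.41-fold higher, and MIXL1 from -4.97 to -3.82 and -4.05, at least 2.22-fold and 1.90-fold higher. TBXT stayed near background at -5.81, -5.46 and -5.86. GATA4 was at -5.34, -4.76 and -5.71, and at another of its probes it went from -6.52 to -4.82 with bFGF, at least 1.60-fold higher, though under normexp the difference turned to -0.67, which is -0.01 relative to all probes. SOX7 was not above background in any of the 3 cultures.

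The size of the rise in 201B7 depends on how background is handled. Quantile normalization gave medians over the factors of 1.78 with bFGF and 2.02 with FGFC, with the median of all probes at 0.02 and 0.05. Normexp background correction moved the median of all probes to -0.66 with bFGF and -0.86 with FGFC, and turned that of the factors to -0.23 and -0.18, which is 0.44 and 0.68 relative to all probes. Under it MIXL1, EOMES and HHEX turned to -0.45, -0.01 and -0.51 with bFGF, which is 0.21, 0.66 and 0.15 relative to all probes, and EOMES and HHEX to -0.07 and -0.28 with FGFC, which is 0.79 and 0.57 relative to all probes. With FGFC MIXL1, at 0.92 and so not 2-fold, turned to -0.63, which is 0.23 relative to all probes. GSC, SOX17, FOXA2 and GATA6 stayed higher under normexp also without that step, by 0.63, 1.36, 0.17 and 0.51 with bFGF and 0.42, 1.39, 0.16 and 0.48 with FGFC. Relative to all probes they were higher by 1.30, 2.02, 0.83 and 1.17 with bFGF and by 1.28, 2.25, 1.02 and 1.33 with FGFC.

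Some single genes around the factors were higher in both arms of 201B7. LINC00261, a long noncoding RNA encoded beside FOXA2 and the 1 such neighbour with a probe, went from -6.50 in the pre-culture to -3.50 with bFGF and -3.24 with FGFC. Of 20 further definitive endoderm genes 2 were higher and 0 lower with bFGF (median 0.09), against 6.16% of all probes changed. With FGFC 3 were higher and 2 lower (median 0.14), against 16.1% of all probes. CXCR4, the surface receptor used to sort definitive endoderm, went from -1.49 to 0.61 and 0.68, and GATA5 from -6.46 to -4.84 and -4.43. APOA2 of extraembryonic endoderm went from -6.03 to -3.17 and -2.57. FOXA1, HNF4A, LGR5 and PROX1 were not well above background on either array of any of the 3 cultures. LINC00261, CXCR4, GATA5 and APOA2 were named after their values were seen, and no normexp values are given for them.

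Counted in the same way in 201B7 with bFGF and FGFC, the NODAL pathway had 1 of 18 genes higher and 1 lower, and 1 higher and 2 lower, with medians of 0.20 and 0.19. The WNT input had 1 of 14 higher and 0 lower, and 1 higher and 1 lower (0.12 and -0.06). Further streak and mesoderm genes had 1 of 20 higher and 1 lower, and 0 higher and 5 lower (-0.10 and -0.42), and extraembryonic endoderm 2 of 20 higher and 1 lower, and 3 higher and 3 lower (0.06 and -0.14). None of the 10 pluripotency markers changed 2-fold in either arm (medians 0.39 and 0.57), and their summed signal was 9.53 in the pre-culture, 9.63 with bFGF and 9.76 with FGFC, the POU5F1 probe being the brightest. The summed signal of the definitive endoderm list was 5.60, 5.89 and 6.20, and its brightest probe was that of SOX2, which pluripotent cells express too. The share of cells behind the rise was not tested.

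The other systems changed less. In H1 in MEF-conditioned medium 0 factors differed 2-fold from the pre-culture with bFGF, against 2.16% of all probes, and 1 with FGFC (TBXT, at least 2.28-fold higher, with a log2 difference of 1.22 that was 0.11 under normexp), against 0.667%. In 253G1 FOXA2 was at -1.05 in the pre-culture, -2.56 with bFGF and -1.61 with FGFC, so that 1 factor was lower with bFGF, against 1.15% of all probes, and 0 changed with FGFC, against 1.11%. H1 in E8 Medium after 30 days had 1 factor lower with bFGF (GSC), against 6.22% of all probes, and with FGFC GSC lower and FOXA2 higher, 2 factors against 11.8%. GSC was at -4.46 in the pre-culture of experiment 1, -5.76 with bFGF and -6.92 with FGFC, at least 1.70-fold and 2.91-fold lower. FOXA2 was at -5.20, -3.85 and -2.99, at least 2.56-fold and 4.64-fold higher. Under normexp none of these was 2-fold, with GSC at -0.18 with bFGF and -0.53 with FGFC and FOXA2 at 0.73 with FGFC, and GSC with bFGF was at -0.88 under quantile normalization. FOXA2 had -2.98 in the pre-culture of experiment 3, so the 30-day value with FGFC lay at the upper end of what the H1 pre-cultures in the same medium showed.

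Differentiated H1 shows what the same probes read when cells have left the pluripotent state. Set against the 3 pre-cultures in E8 Medium, averaged, 8 of 10 factors differed 2-fold, all higher, against 29.7% of all probes, and 6 were also well above background on both arrays, against 22.0%. Above the highest of the 26 other cultures lay 4 factors, against 13.5% of all probes, and these 4 were well above background, against 12.3%. The median difference was 2.42 over the factors and -0.12 over all probes. Under normexp the median over the factors was 0.52, and 4 factors (EOMES, SOX17, FOXA2 and GATA6) in place of 8 differed 2-fold. Since this is 1 culture, no test was made.

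GATA6 was at 0.68 in differentiated H1 against -6.96 ± 0.57 in the pre-cultures (SD, n = 3), at least 110.3-fold higher, and SOX17 at -0.21 against -6.66 ± 0.44, at least 57.9-fold. EOMES was at -1.44 against -6.94 ± 0.15, at least 25.0-fold higher, and SOX7 at -3.81 against -6.28 ± 0.79, at least 4.47-fold. The highest other cultures had -1.79, -0.84 and -2.95 for GATA6, SOX17 and EOMES, each in 201B7 with bFGF, and -4.89 for SOX7. FOXA2 at -1.87 was at least 5.98-fold higher than the pre-cultures and GSC at -4.07 at least 1.98-fold, but 2 and 4 other cultures had more. TBXT (-4.38) and MIXL1 (-4.75) were well above background on 1 of 2 arrays. GATA4 was at -3.68 against -4.51 ± 0.53, at least 1.77-fold higher, while another of its probes was at least 5.09-fold higher (-3.53 against -6.23). Under normexp the log2 differences were 3.87 for GATA6, 3.23 for SOX17, 2.35 for EOMES, 1.21 for FOXA2, 0.56 for SOX7, 0.30 for GSC and 0.13 for GATA4. HHEX, at -6.86, was not above background, and 22 of the 26 other cultures had a higher signal.

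**Figure D4:**
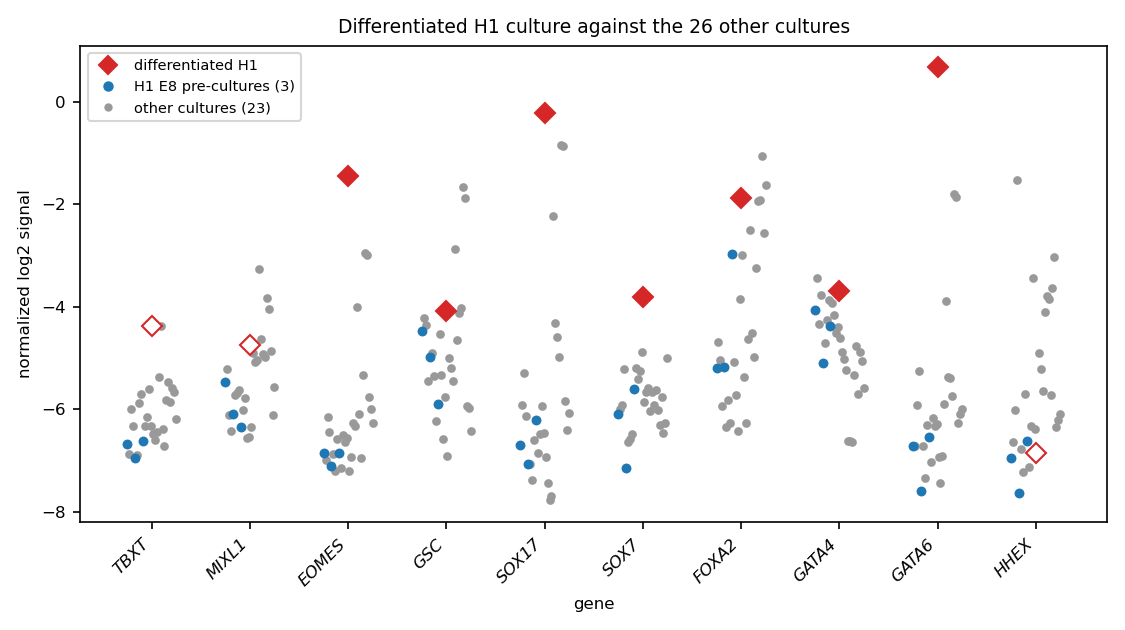
Normalized log2 signal of the 10 factors in differentiated H1 (diamond, open where not well above background on both arrays) and in the 26 other cultures (points). GATA6, SOX17, EOMES and SOX7 lie above every other culture, and HHEX lies below most.

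The lists around the factors changed to different extents in differentiated H1, with 1 value per gene. Of 20 extraembryonic endoderm genes 16 were higher and 0 lower than in the pre-cultures (2-fold and well above background, median 3.46), led by TTR, at least 2432-fold higher, and APOA2, at least 160.3-fold. HNF4A was the 1 gene of that list not above background, and the list summed to 7.83, with the COL4A2 probe the brightest (5.99). Of 20 further definitive endoderm genes 8 were higher and 4 lower (median 0.22), with GATA5 at least 50.9-fold and FOXA1 at least 9.41-fold higher, and HNF4A, PDX1, PROX1 and CER1 among those not above background. Of 20 further streak and mesoderm genes 10 were higher and 2 lower (median 1.41), and HAND1 was at least 160.1-fold higher. The WNT input had 9 of 14 higher and 0 lower (median 2.63), with SP5 at least 203.8-fold higher, whereas the NODAL pathway had 2 of 18 higher and 8 lower (median -0.35), with TDGF1 at -7.48 and LEFTY1 at -5.97 from the pre-cultures on the log2 scale.

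Markers of other cell types rose in the same culture. Of 12 neuroectoderm markers 11 were higher and HESX1 was lower (median 5.67), and all 12 were above background, with a summed signal of 5.86 and the SOX3 probe as the brightest (4.45). Of 13 amnion and trophoblast markers 12 were higher and 0 lower (median 5.92), with a sum of 6.87 and the KRT7 probe as the brightest (5.79), and CGA was at least 1003-fold higher. Cardiac markers had 5 of 12 higher and 1 lower (median 1.61), and their brightest probe, NKX2-5, was at 6.18 against 6.66, 7.01 and 6.48 in the pre-cultures. Endothelial markers had 2 of 12 higher and 3 lower (median 0.64, the LMO2 probe the brightest at 0.53), and 9 of 10 pluripotency markers were lower (-4.03). GATA4, GATA6, SOX7 and SOX17 are expressed in several of these tissues, and the part of each tissue in their signal was not tested.

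**Figure D5:**
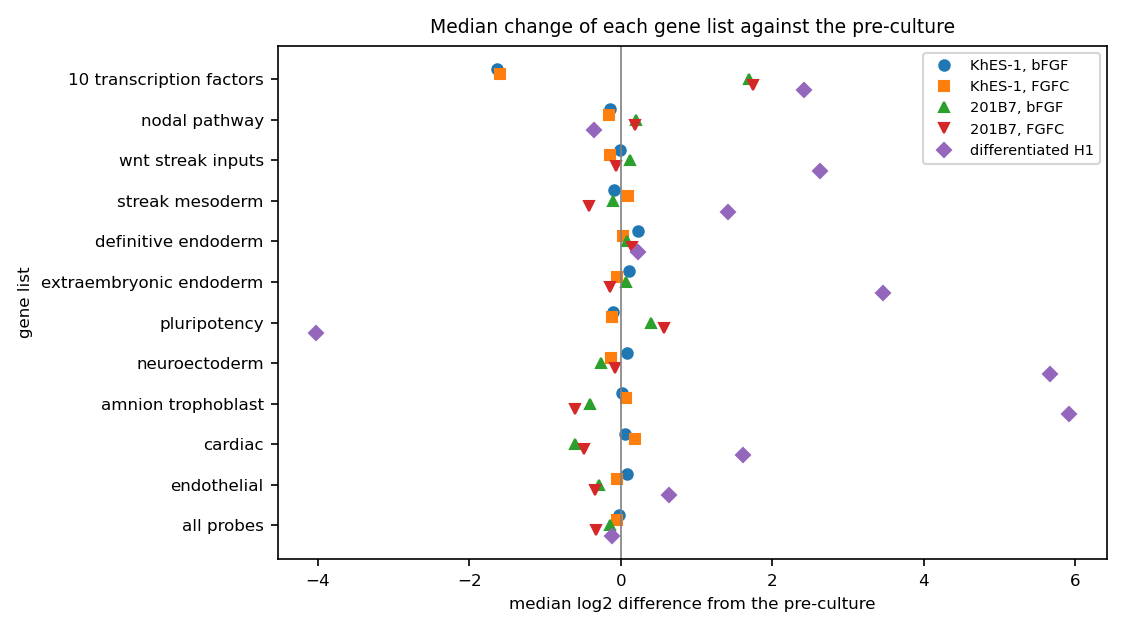
Median log2 difference from the pre-culture (horizontal axis) of each gene list (vertical axis) for the arms of KhES-1 and 201B7 and for differentiated H1. For the 10 transcription factors the medians are -1.64 and -1.59 in KhES-1 (-0.49 and -0.54 under normexp). In 201B7 they are 1.69 and 1.74 (under normexp -0.23 and -0.18, with all probes at -0.66 and -0.86, so 0.44 and 0.68 relative to them). In differentiated H1 the median is 2.42 (0.52 under normexp), while the other lists plotted run from -0.60 to 0.57 in the feeder systems.

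The factors varied together in part over the 27 cultures. As a description, and with no test, Pearson's r was 0.958 between EOMES and GATA6, 0.938 between SOX17 and GATA6 and 0.916 between EOMES and SOX17. Over the 26 cultures without differentiated H1 these were 0.931, 0.937 and 0.892. GSC and SOX17 had 0.745 and 0.794, MIXL1 and GSC 0.758 and 0.753 over 27 and 26 cultures. GATA4 went against MIXL1 (-0.535 and -0.600), and HHEX had 0.377 with GATA6 over 27 cultures and 0.667 over 26. Over the 20 cultures left without 201B7, KhES-1 and differentiated H1, a choice made after seeing the data, the coefficients were 0.697 for EOMES and GATA6, 0.549 for SOX17 and GATA6, 0.373 for EOMES and SOX17, -0.0789 for GSC and SOX17 and 0.315 for MIXL1 and GSC, lower in each of these pairs than over 27. GATA4 and MIXL1 had -0.230, and GATA6 and HHEX had 0.569, higher than over 27. In none of these 20 cultures was EOMES, SOX17 or GATA6 well above background on both arrays. The coefficients of these factors over the 20 cultures thus relate signals near background and do not show that their RNA varied together. The cultures share lines, media and slides, and many of the values lie near background.

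For the 4 factors above background in at least 10 cultures, the most alike of 15255 genes were named by the same coefficient. For HHEX they were GLI2 (r = 0.863), SOX2 (0.862) and LGR4 (0.853), and over 26 cultures 0.859, 0.884 and 0.858. For FOXA2 they were YIF1A (0.827), TMEM17 (0.806) and GPHN (0.798), and 0.844, 0.791 and 0.782 over 26 cultures. For GSC they were BCL6 (0.763), SUGP2 (0.761) and ATP6V0A4 (0.761), and 0.762, 0.774 and 0.757 over 26. For GATA4 they included LOC730101 (0.911) and ABO (0.909), with 0.905 and 0.919 over 26. The other 6 factors were above background in fewer cultures and were not matched.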

How the data were processed

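RNA of 27 cultures was measured on 54 one-colour Agilent arrays on 17 slides. The signal intensity of each spot is the processed signal that the authors deposited from Agilent Feature Extraction 10.7.3.1, background-subtracted, on a linear scale and without scaling between arrays. The authors also deposited yes-or-no marks per spot, for outliers and for signal well above background. Of 62976 spots per array 4259 control spots were left out, as were outlier spots. Signals under 1 were raised to 1. The log2 signals of the spots of each of 42405 probes were averaged, the array's 75th percentile was subtracted, and the 2 arrays of a culture were averaged. The share of probes well above background was 56.0% to 79.2% per array. RefSeq accessions named 25715 probes, and 16690 without a name were tested but not named.

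Groups follow the deposited labels. Tests used limma 3.58.1 in R 4.3.3 with the data.table package (1.17.8) (lmFit and eBayes, two-sided, Benjamini-Hochberg over all 42405 probes, threshold 0.05), in 1 fit of the 12 cultures of the 4-day series and 1 fit of the 10 long-term cultures with the system as a block. Single cultures were compared by 2-fold differences without a test. The fits were tested on simulated data, and no result of those runs is used here. Python scripts drew the plots (Python 3.11.15, numpy 2.4.6, pandas 2.3.3, scipy 1.17.1 and matplotlib 3.10.9).

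The 10 factors and 11 further lists were chosen with earlier results of these data known. Besides the factors, values are given for up to 4 genes of each list, by size of change, among those past limma without FGF against bFGF, and up to 4 by size of change in differentiated H1. The higher side had to pass as well above background on all its arrays. Genes listed without values are those counted as passing or as not above background. Exceptions are stated. List genes without a probe that could be matched were CRIPTO3, CGB5, GATA6-AS1, GSC-DT and SOX17-DT.

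The alternatives replaced the background correction by normexp (offset 50, on the median signal, since the deposited files hold no mean signal), the scaling by quantiles, and the floor by the smallest signal passing as well above background. Others were a filter on dim probes, either array alone, only the 2 groups compared, the experiment number or the slide as a block, and each replicate or system left out.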

Additional observations from a re-analysis of the deposited data

Results flagged for a closer look

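The difference of TBXT between FGFC and bFGF in H1 in MEF-conditioned medium stood apart from those in the other 4 long-term systems. It was 1.07 on the log2 scale there, against -0.16 for H1 in E8 Medium, -0.33 for KhES-1, -0.40 for 201B7 and -0.51 for 253G1. The gap from the highest value to the next, divided by the range of the 5 values, was above the critical value of 0.71 (Dixon's test, 95%). Of 10 factors looked at in this way 1 stood apart, and chance alone marks about 5% of such groups. TBXT was well above background on both arrays in the FGFC culture of that system and on 1 array in the bFGF culture, and in the other 4 systems it was not well above background on both arrays of either arm. Under normexp the difference was 0.12, below the 0.25 of H1 in E8 Medium and next to 0.10 for KhES-1, -0.25 for 201B7 and -0.08 for 253G1, so that it did not stand apart. The arms lay on different slides in H1 in MEF-conditioned medium, H1 in E8 Medium and KhES-1, and on the same slide in 201B7 and 253G1. Each value is 1 culture against 1 culture, and the cause was not tested.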

How the results depend on the processing

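The calls of the 10 factors depended on the processing. Of 11 alternatives, the call against bFGF was lost in 9 for TBXT, 5 for GSC and 4 for HHEX, and the call of HHEX against FGFC in 5, which makes up the 23 weaker tests of the factors. Another 4 were stronger and 504, mostly of factors never called, the same. For other named genes 373 were the same and 23 weaker. Of the 2-fold values 216 were the same, 159 moved and 5 reversed.

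Between no FGF and bFGF the number of factors past limma's test was 3. It was 1 under normexp (HHEX), 0 with the floor, 1 in a fit of only the 2 groups compared (GSC) and 0 to 1 when 1 replicate was left out (GSC without replicate 1, HHEX without replicate 2, 0 without replicate 3). Between no FGF and FGFC the number was 1. It was 0 with the floor, 0 on the first array, 0 in a fit of only the 2 groups and 0 to 1 when 1 replicate was left out. With the filter on dim probes none of the factors was left to test in the 4-day series. Over all probes the counts ran from 1272 to 9750 around 5400 against bFGF and from 974 to 5821 around 4575 against FGFC. The other replicated comparisons had 0 in every alternative.

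With the experiment number as a block, limma called 3 factors against bFGF, as without it, and 2 against FGFC (GSC and HHEX), as did the slide as a block (2, GSC and HHEX). The adjusted p of HHEX was then 0.00982 against bFGF and 0.0178 against FGFC. Whether the experiment number pairs the cultures was checked by correlating their deviations from the group means. Over 18 pairs the r had a median of 0.19 (-0.16 to 0.52). It was 0.32, 0.23 and 0.19 between no FGF and bFGF and 0.26, 0.23 and 0.26 between no FGF and FGFC, while 5 pairs, 4 of them with a pre-culture, were at 0.1 or less. The pairing is thus not established over the 4 groups of the fit.

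By the 2-fold rule 2 factors changed between no FGF and bFGF. This was 1 under normexp, 1 with the floor, 4 on the second array and 0 with the rule for signal well above background, an alternative chosen after seeing the data. In differentiated H1 the number was 8, and 4 under normexp.

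The KhES-1 and 201B7 alternatives were chosen after seeing the data. In KhES-1 the 7 factors lower with bFGF became 1 under normexp and 0 relative to the median of all probes, and the 7 lower with FGFC became 2 and 2. In 201B7 the 7 higher with bFGF became 1, and 3 relative to that median, and the 6 higher with FGFC became 1, and 4 relative to it. There normexp moved the median of all probes by -0.66 with bFGF and -0.86 with FGFC. Of the factors counted as changed, those of the other sign under normexp were MIXL1 (-0.45, and 0.21 relative to that median), EOMES (-0.00507, and 0.66) and HHEX (-0.51, and 0.15) with bFGF, and EOMES (-0.0685, and 0.79) and HHEX (-0.28, and 0.57) with FGFC. Below the 2-fold rule TBXT (-0.88, and -0.22) with bFGF and MIXL1 (-0.63, and 0.23) and SOX7 (-1.06, and -0.20) with FGFC also turned, as did GATA4 with bFGF (-0.73, and -0.07). The cause was not tested.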
